A study of Sus scrofa with 6 samples.

Results

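The genes described here encode subunits of the chromatin remodelling complexes and related chromatin proteins, measured in pig oocytes. They were selected by gene symbol: every probe set with a single annotated symbol starting with SMARC, ARID1 to ARID5, INO80, RUVBL, ACTL6, BRD, BAZ, MBD, DPF, HMGA, HMGB or HMGN, or equal to a CHD1 to CHD9, MTA, RBBP4, RBBP7, BPTF, PBRM1, ATRX or CFDP1 symbol. This family was chosen by readout as well, because some of its genes were already known to differ in the comparison below, so the differences between the groups are given as a description and support nothing further. The rule found 77 probe sets for 46 genes, of 6765 genes with a symbol of their own among 23999 probe sets that are not array controls. A probe set is the group of short probes that together measure a single transcript.

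The study asked how oocytes of low and high developmental competence differ in their RNA. It compared 3 arrays of oocytes from prepubertal pigs (gilts) with 3 arrays of oocytes from adult pigs (sows). In both groups the follicles measured 2 to 6 mm, and the oocytes spent 42 to 44 h in maturation culture, were stripped of their cumulus cells with hyaluronidase and vortexing, and kept when they showed the extruded first polar body, the mark of metaphase II. Poly(A) RNA was amplified in 2 cycles, biotin-labelled and hybridized to Affymetrix arrays. Neither strain, age in days nor number of oocytes per array is stated in the labels, both groups were matured in vitro rather than in the animal, and the arrays of each group are labelled biological replicates without naming animals or pools.

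Remodelling complexes use the energy of ATP to slide, evict or exchange nucleosomes, and they are grouped by their motor ATPase: SWI/SNF (SMARCA4 or SMARCA2), ISWI (SMARCA5 or SMARCA1), CHD with the NuRD complexes, and INO80 with SWR1. The roles given below were worked out mainly in yeast, flies, mice and humans. A mature oocyte makes little new RNA, and its stored transcripts and proteins serve the embryo until its own genome is switched on. In the mouse, loss of the maternal store of SMARCA4 impairs that switch. Since only poly(A) RNA was captured, a signal here reflects the polyadenylated part of a stored transcript, and a smaller store cannot be told apart from a shorter poly(A) tail or from less RNA per oocyte.

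Values are MAS5 signals as deposited, given for replicates 1, 2 and 3 in that order. Each difference is prepubertal minus adult in log2(signal + 16), with the standard error (SE) and adjusted p of limma fitted over all 12000 probe sets with a mean in the upper part of the array, and the threshold is an adjusted p of 0.05. A fold is computed on that same scale and understates the change of dim probe sets. The prepubertal arrays were dimmer on average: their trimmed mean signals were 132.1, 106.4 and 114.8, against 161.4, 122.5 and 141.9 for the adult arrays. By this measure the groups overlapped, since prepubertal replicate 1 was brighter than adult replicate 2. On the deposited scale the tested probe sets had a median difference of -0.20, and quantile normalization, which gives every array the same distribution, brought that median to -0.01, so quantile-normalized values are given beside the deposited ones for the members where they change a call or the overlap of the groups on the brightest set. The 6 oocyte genes of the marker list on the array had a summed signal of 17550 to 20570 in prepubertal and 19190 to 20260 in adult oocytes, 11 cumulus and granulosa genes 200.5 to 259.8 against 226.5 to 297.1, and 12 genes of theca, stroma, blood and endothelium 288.5 to 574.8 against 454.2 to 696.9. KPNA7 (mean 14100 prepubertal, 14400 adult) made up most of the oocyte sum, and HBB (214 and 296) was the brightest of the last list. As deposited, 4 of the 6 oocyte genes were lower in prepubertal oocytes (GDF9 231 against 360) and 2 higher (BMP15 195 against 169). Of 6 tested genes in the last list 4 were lower and 2 higher. Among them COL3A1 (16.2 and 41.2) had groups apart (limma adjusted p = 0.214). Of the cumulus and granulosa genes, FSHR, AMH, STAR, CYP11A1, CYP19A1, PTGS2, PTX3 and TNFAIP6 were too dim to be tested, while INHBA (mean signal 100 prepubertal, 126 adult), the brightest VCAN set (50.7 prepubertal, 49.4 adult) and INHA (41.6 prepubertal, 39.7 adult) were tested. The part of these other cells in the differences below was not tested.

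Of the 77 probe sets, 55 were bright enough to be tested, covering 37 of the 46 genes. Of these 55, 4 passed the threshold as deposited, all lower in prepubertal oocytes, and they belonged to SMARCE1, SMARCA5, CFDP1 and ARID4A. The background was 0.442% of all tested probe sets lower and past the threshold, against 7.27% of the member probe sets. After quantile normalization the SMARCE1 and CFDP1 probe sets passed, 3.64% of the members against a background of 0.0917%. These are the calls the family was selected on, so nothing is read from the shares. The probe set just inside the threshold was that of ARID4A (adjusted p = 0.0441) and the nearest outside it was that of HMGN4 (adjusted p = 0.169), both from limma. None of the 4 passed when the filter on dim probe sets was dropped (lowest limma adjusted p 0.0726) or when limma's spread was fitted without a trend on intensity (lowest 0.0583).

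Taking the brightest tested probe set of each gene (highest mean log2 signal), 35 of 37 genes had lower values in prepubertal oocytes and 2 had higher ones, with a median log2 difference of -0.38. Of all 4600 tested genes, 76.5% had lower values, with a median of -0.21. After quantile normalization 24 of the 37 were lower and 13 higher, with a median of -0.14 against -0.001 for all genes. The median of every family rose between the settings: -0.388 to -0.141 for SWI/SNF, -0.436 to -0.183 for ISWI and -0.23 to 0.003 for CHD and NuRD. It rose from -0.352 to -0.185 for INO80 and SWR1 and from -0.228 to 0.028 for the other members. The replicate-to-replicate SDs of these medians (0.299 over all members, 0.0991 to 0.343 in the families) do not measure such a change of scale. The 3 prepubertal values lay below all 3 adult values for 18 of the 55 probe sets (32.7%, background 17.1%) and above them for 1 (1.82%, background 1.81%). After quantile normalization these counts were 9 (16.4%, background 8.78%) and 5 (9.09%, background 7.53%).

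**Figure D1:**
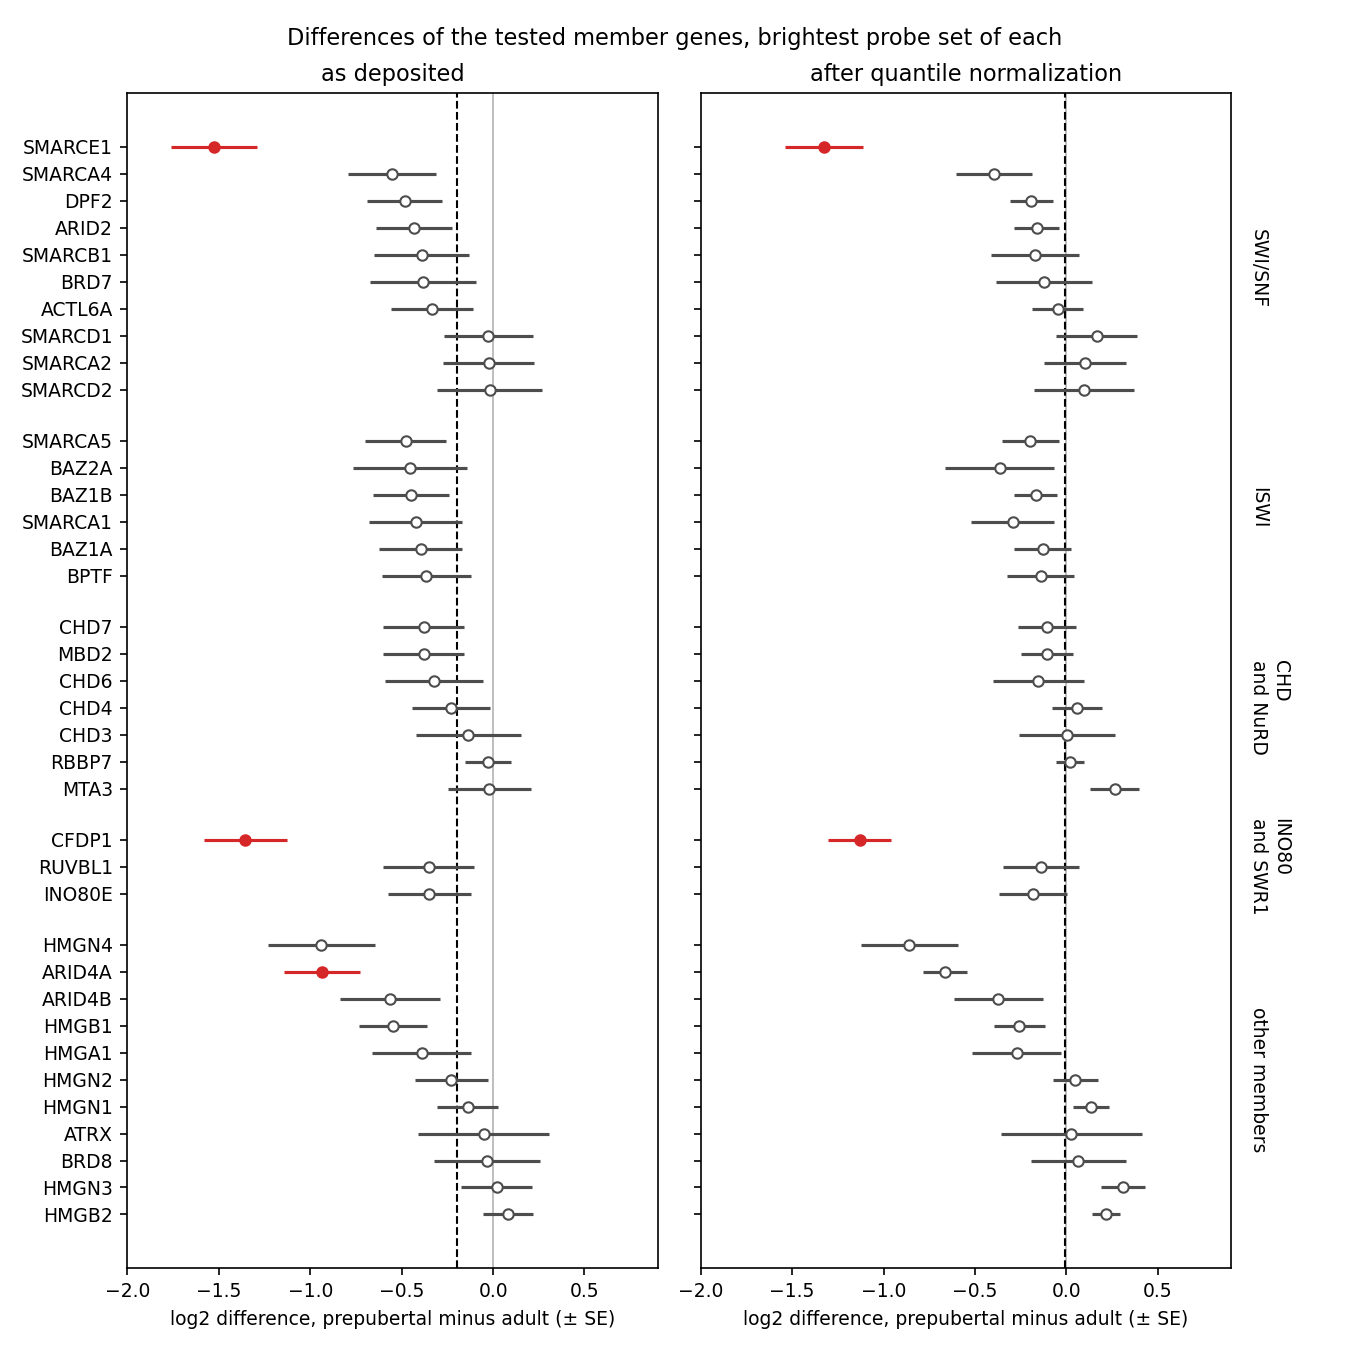
Log2 difference, prepubertal minus adult, for the brightest tested probe set of each of the 37 tested genes, by family, as deposited (left) and after quantile normalization (right). Points are estimates, whiskers are ± SE, and the dashed line is the median of all tested probe sets. Filled red points passed a limma adjusted p of 0.05 in the setting of their panel. ARID4A is red in the left panel only, since it missed the threshold after quantile normalization (limma adjusted p = 0.0556). SMARCE1 and CFDP1 lie farthest to the left in both panels, and the brightest sets of the ISWI genes fall within a narrow range. The SMARCA5 set that passed as deposited (-1.38) is not the brightest of its gene and is not drawn.

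In the SWI/SNF family, 12 genes were on the array and 10 were tested. Prepubertal values were lower for all 10 in the deposited signals (median -0.39) and for 7 once quantile-normalized (median -0.14). SMARCE1 encodes BAF57, a DNA-binding subunit with an HMG domain that is shared by the BAF and PBAF forms of the complex. Its probe set gave 55.6, 66.4 and 35.9 in prepubertal oocytes, against 186, 166 and 184 in adult oocytes. All prepubertal arrays lay well below all adult arrays, whose values were close together. SMARCE1 was 2.88-fold lower in prepubertal oocytes (log2 difference -1.53 ± 0.24 SE, limma adjusted p = 0.00526). After quantile normalization it was 2.51-fold lower (limma adjusted p = 0.0452). Leaving out each array in turn, it passed as deposited in 5 of 6 fits and missed without adult replicate 2 (limma adjusted p = 0.0811). After quantile normalization it passed in 2 of 6, those without prepubertal replicate 1 or 2, and the limma adjusted p was 0.105 to 0.197 in the rest.

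The motor ATPases of this family differed less. SMARCA4 gave 57.8, 49.1 and 38.2 in prepubertal oocytes, against 103, 69.5 and 65.2 in adult oocytes. The groups did not overlap in either setting. The log2 difference was -0.55 ± 0.24 as deposited (limma adjusted p = 0.299) and -0.395 after quantile normalization (limma adjusted p = 0.508). SMARCA2, the alternative motor, gave 47.6, 42.2 and 31.0 in prepubertal and 49.2, 42.0 and 32.4 in adult oocytes. Its groups overlapped fully (log2 difference -0.02 ± 0.25). Another SMARCA4 probe set, with group means of 2.33 in prepubertal and 3.02 in adult oocytes, was too dim to be tested.

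Among the subunits that give each form of the complex its identity, ARID2, the DNA-binding subunit of PBAF, gave 875, 747 and 863 in prepubertal oocytes and 1297, 888 and 1222 in adult oocytes. The groups were apart as deposited but overlapped after quantile normalization (-0.43 and -0.16, limma adjusted p = 0.334 and 0.662). DPF2, a histone-reading subunit of BAF, had a brightest probe set with 1081, 801 and 798 in prepubertal and 1472, 1137 and 1142 in adult oocytes (-0.48 ± 0.21, limma adjusted p = 0.285), apart as deposited and overlapping after quantile normalization (-0.19). BRD7, a bromodomain subunit of PBAF, gave 1410, 907 and 517 in prepubertal and 1751, 910 and 938 in adult oocytes, with a wide spread in both groups. The actin-related subunit ACTL6A, shared with INO80, gave 1263, 712 and 840 in prepubertal and 1435, 999 and 1069 in adult oocytes (-0.34 ± 0.23). The core subunit SMARCB1 overlapped between the groups (-0.39 ± 0.26), with 119 ± 47.5 in prepubertal and 154 ± 17 in adult oocytes (mean ± SD over 3 arrays each). SMARCD1 and SMARCD2, paralogous accessory subunits, had log2 differences of -0.03 and -0.02.

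**Figure D2:**
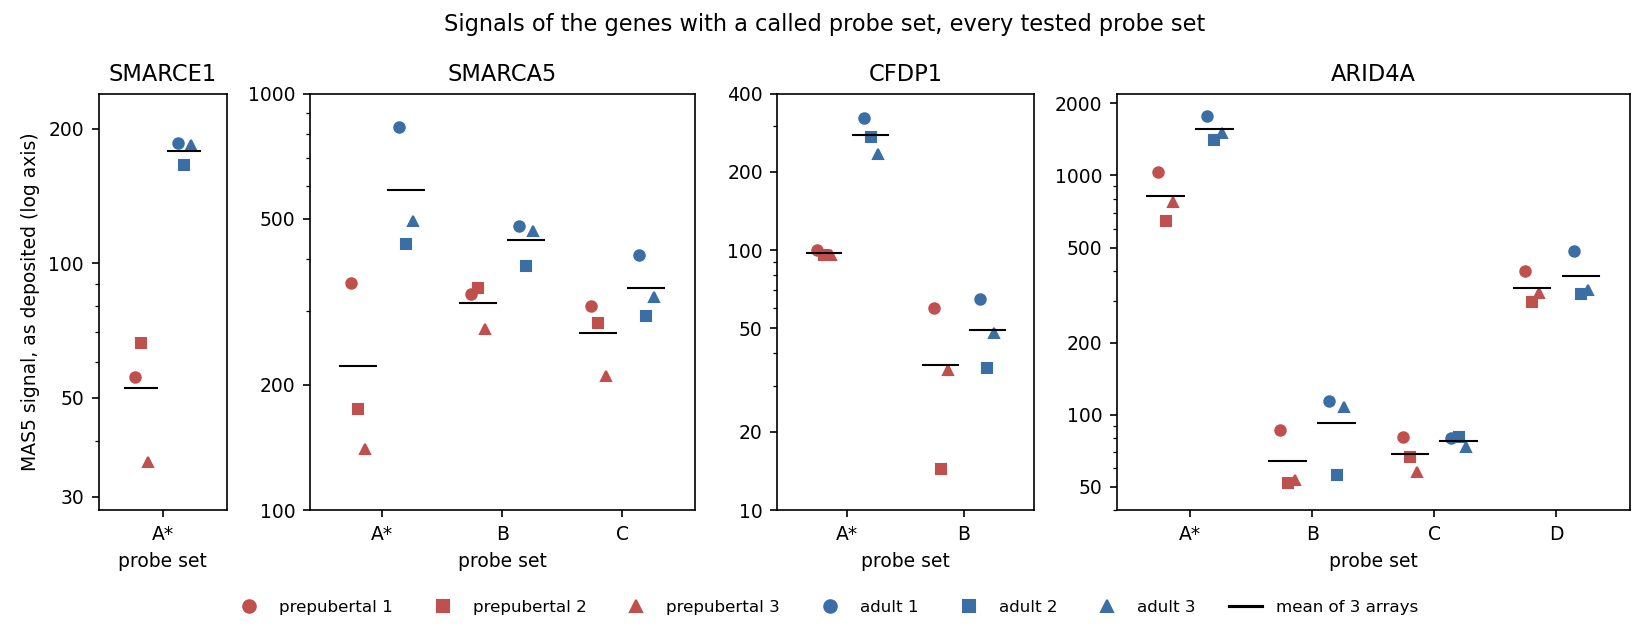
MAS5 signals (log axis) of every tested probe set of the 4 genes with a probe set past the threshold as deposited, with each array as a point (prepubertal in red, left, adult in blue, right, symbols by replicate) and a bar at the mean of 3 arrays. Probe sets run from the lowest to the highest difference, and the starred one passed. For SMARCA5, CFDP1 and ARID4A the unstarred probe sets show smaller gaps between the groups.

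The ISWI family had 7 genes on the array and 6 tested. All 6 brightest probe sets were lower in prepubertal oocytes in both settings, within a narrow range of -0.48 to -0.37 as deposited (median -0.44) and -0.37 to -0.13 after quantile normalization (median -0.18). Of these brightest sets 0 passed by limma, while 3 of the 9 tested ISWI probe sets were lower at an unadjusted p under 0.05 as deposited (background 13.6% of all tested probe sets) and 1 after quantile normalization (background 5.81%). Over all 9 tested sets the deposited differences spanned a wider range, from -1.38 (SMARCA5) to -0.12 (SMARCA1). SMARCA5 encodes SNF2H, the ISWI motor of the ACF, WICH, NoRC and RSF complexes. Another SMARCA5 probe set gave 350, 175 and 140 in prepubertal oocytes, against 831, 434 and 495 in adult oocytes. The groups did not overlap, although replicate 1 was the brightest array of both groups. This set was 2.61-fold lower in prepubertal oocytes as deposited (-1.38 ± 0.29, limma adjusted p = 0.0308) and did not pass after quantile normalization (-1.12, limma adjusted p = 0.0944). As deposited it passed in 2 of the 6 fits that left out an array, those without prepubertal replicate 1 and without adult replicate 3.

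The other SMARCA5 probe sets differed less. The brightest gave 331, 341 and 272 in prepubertal and 481, 385 and 468 in adult oocytes (-0.48 ± 0.22, limma adjusted p = 0.322), apart as deposited and overlapping after quantile normalization (-0.20), and the dimmest gave 308, 281 and 210 in prepubertal and 409, 292 and 325 in adult oocytes (-0.35 ± 0.23). The paralogous motor SMARCA1 gave 29.3, 35.5 and 21.8 in prepubertal and 52.6, 40.6 and 38.8 in adult oocytes, groups that were apart as deposited (-0.42 ± 0.25, limma adjusted p = 0.44) and overlapped after quantile normalization (-0.29).

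Among the large partner subunits of the ISWI motors, BAZ1B, the WICH subunit WSTF, gave 1078, 835 and 887 in prepubertal and 1623, 1100 and 1152 in adult oocytes. Its groups were apart as deposited, although the log2 difference was -0.45 ± 0.21 and did not pass (limma adjusted p = 0.321). After quantile normalization they were barely apart, with 1052 in prepubertal replicate 1 and 1054 in adult replicate 3 (-0.17, limma adjusted p = 0.636). BAZ1A, the ACF subunit ACF1, gave 302, 281 and 221 in prepubertal and 411, 322 and 336 in adult oocytes, apart as deposited (-0.40 ± 0.23) and overlapping after quantile normalization (-0.13). BPTF, the histone-reading subunit of NURF, gave 138, 89.7 and 93.2 in prepubertal and 162, 107 and 158 in adult oocytes, with overlap (-0.37 ± 0.24). BAZ2A, the NoRC subunit TIP5, was dim, with 8.13, 28.7 and 8.88 in prepubertal and 25.9, 24.5 and 24.7 in adult oocytes. Prepubertal replicate 2 lay above every adult array. BAZ2B was below the level tested on all its probe sets.

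In the CHD and NuRD family, 9 genes were on the array and 7 were tested. As deposited all 7 were lower (median -0.23), and after quantile normalization 3 were lower and 4 higher (median 0.003). By limma 0 of its 11 tested probe sets passed in either setting, and 1 was lower at an unadjusted p under 0.05 in each, near the background of 13.6% as deposited and 5.81% after quantile normalization. CHD4, the main motor of NuRD, gave 435, 371 and 441 in prepubertal and 552, 456 and 464 in adult oocytes. The groups were apart as deposited and not after quantile normalization (-0.23 and 0.06, limma adjusted p = 0.644 and 0.914). A dimmer CHD4 probe set spread from 1.09 to 32.9 in prepubertal and from 6.22 to 47.1 in adult oocytes. CHD3, an alternative NuRD motor, gave 27.7, 30.02 and 27.2 in prepubertal and 51.7, 15.5 and 38.0 in adult oocytes (-0.14 ± 0.29).

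CHD7 and CHD6, motors of the CHD subfamily without a NuRD role, had log2 differences of -0.38 ± 0.22 and -0.32 ± 0.27 on their brightest sets. CHD7 gave 408, 347 and 347 in prepubertal and 449, 430 and 577 in adult oocytes, apart as deposited and overlapping after quantile normalization (-0.11). A dim CHD6 probe set had the largest difference of the family and stayed apart in both settings, with 6.63, 8.18 and 11.9 in prepubertal and 25.3, 16.8 and 42.7 in adult oocytes (-0.79 ± 0.32, limma adjusted p = 0.261).

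Of the non-motor NuRD subunits, RBBP7, a histone-binding subunit shared with several chromatin complexes, gave 9598, 8381 and 8440 in prepubertal and 9849, 8178 and 8949 in adult oocytes, and its groups overlapped (-0.03 ± 0.13). MTA3, a scaffold subunit, gave 748, 553 and 580 in prepubertal and 828, 540 and 561 in adult oocytes. Its groups overlapped in the deposited signals (-0.02 ± 0.23) and were apart with higher prepubertal values after quantile normalization (0.26 ± 0.14, limma adjusted p = 0.502). MBD2, which ties NuRD to methylated DNA, gave 342, 270 and 333 in prepubertal and 441, 357 and 445 in adult oocytes on its brightest set, apart as deposited (-0.38 ± 0.22) and overlapping after quantile normalization (-0.10). CHD8 and MTA2 were too dim to be tested.

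The INO80 and SWR1 family had 6 genes on the array and 3 tested, so its medians (-0.35 as deposited and -0.18 after quantile normalization) rest on few genes. CFDP1 is the mammalian relative of yeast Swc5, a subunit of the SWR1 complex that places the histone variant H2A.Z. Its brighter probe set gave 99.8, 95.6 and 96.1 in prepubertal oocytes, against 323, 271 and 233 in adult oocytes. The prepubertal arrays were almost level with each other and far below every adult array. CFDP1 was 2.56-fold lower in prepubertal oocytes (-1.36 ± 0.23, limma adjusted p = 0.00866), and 2.19-fold lower after quantile normalization (limma adjusted p = 0.04). As deposited it passed in 4 of the 6 fits that left out an array, and missed without adult replicate 1 (limma adjusted p = 0.0906) and without adult replicate 2 (limma adjusted p = 0.0817). After quantile normalization it passed in 1 of 6, that without prepubertal replicate 1, and the limma adjusted p was 0.0644 to 0.192 in the rest.

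A dimmer CFDP1 probe set overlapped between the groups, with 59.8, 14.4 and 34.5 in prepubertal and 64.8, 35.2 and 48.2 in adult oocytes (-0.40 ± 0.30). RUVBL1, an AAA+ ATPase shared by INO80 and SWR1, gave 71.8, 88.1 and 79.1 in prepubertal and 160, 80.0 and 90.8 in adult oocytes, where adult replicate 1 stood above the rest (-0.35 ± 0.25). INO80E, an INO80 accessory subunit, gave 57.6, 54.1 and 48.0 in prepubertal and 75.9, 66.6 and 73.7 in adult oocytes. Its groups were apart as deposited (-0.35 ± 0.23, limma adjusted p = 0.478) and after quantile normalization (-0.185, limma adjusted p = 0.746). RUVBL2, INO80B and INO80C were too dim to be tested.

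The other members are chromatin proteins that were not placed in these ATPase families here, with 12 genes on the array and 11 tested (9 lower and 2 higher as deposited, 5 lower and 6 higher after quantile normalization). ARID4A and ARID4B are paralogous DNA-binding subunits of the SIN3 histone deacetylase complex. The brightest ARID4A probe set gave 1032, 647 and 778 in prepubertal oocytes, against 1766, 1407 and 1503 in adult oocytes. The groups were apart in both settings. It was 1.91-fold lower as deposited (-0.94 ± 0.21, limma adjusted p = 0.0441) and 1.58-fold lower after quantile normalization, where it missed the threshold (limma adjusted p = 0.0556). In the fits that left out an array it passed as deposited in 1 of 6, that without prepubertal replicate 1.

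ARID4B had differences of -0.56 ± 0.28 and -0.72 ± 0.34 on its 2 tested sets, and the groups overlapped on both. HMGN4, a nucleosome-binding protein of the HMGN family, was dim, with 10.7, 4.25 and 12.2 in prepubertal and 33.0, 31.4 and 30.4 in adult oocytes. Its groups were apart in both settings and its log2 difference of -0.94 ± 0.29 did not pass (limma adjusted p = 0.169). The HMGN and HMGB genes have many near-identical copies in mammalian genomes, so which copy these probe sets measure is uncertain.

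Of the remaining HMGN genes, HMGN1 gave 4168, 2837 and 3052 in prepubertal and 3882, 3327 and 3734 in adult oocytes, with overlap as deposited (-0.14 ± 0.17) and with higher prepubertal values, apart, after quantile normalization (0.14 ± 0.10). HMGN3 gave 1165, 950 and 1129 in prepubertal and 1090, 1000 and 1102 in adult oocytes, and differed by 0.02 in log2 as deposited but by 0.31 once quantile-normalized, where the groups were apart (limma adjusted p = 0.387). HMGN2 had -0.23 ± 0.20 as deposited and 0.05 after quantile normalization. HMGA1, an architectural protein of AT-rich DNA, overlapped between the groups (-0.39 ± 0.27).

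Of the DNA-bending HMGB proteins, HMGB2 gave 7264, 6122 and 6882 in prepubertal and 6968, 5581 and 6631 in adult oocytes (0.08 ± 0.14 as deposited, 0.22 ± 0.08 after quantile normalization, where the groups were apart). The brightest HMGB1 set gave 1356, 1139 and 1173 in prepubertal and 1637, 1712 and 2035 in adult oocytes, apart as deposited (-0.55 ± 0.19, limma adjusted p = 0.2) and overlapping after quantile normalization (-0.26). ATRX, a remodeller that deposits histone H3.3 with DAXX, spread from 2.02 to 36.5 in prepubertal and from 11.7 to 26.0 in adult oocytes. BRD8, a bromodomain subunit of the p400 complex, gave 24.6, 15.7 and 25.1 in prepubertal and 28.4, 13.6 and 27.0 in adult oocytes. Neither showed a difference beyond its spread.

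Several genes were measured by more than 1 probe set, and these did not always move together. Of 11 genes with at least 2 tested sets, 6 (ARID4A, BRD7, DPF2, HMGB1, MBD2 and SMARCA1) had sets on both sides of the median of all probe sets. The widest gap was that of SMARCA5, 1.04 on the log2 scale. On ARID4A the sets other than the called one had -0.42, -0.16 and -0.14. DPF2 had 2 dimmer sets with higher prepubertal values, 0.29 and 0.32. The set at 0.32 gave 55.5, 58.7 and 70.7 in prepubertal and 51.2, 37.6 and 49.5 in adult oocytes, apart in both settings (limma adjusted p = 0.528). HMGB1 had 4 sets, with -0.63, -0.55, -0.06 and 0.19.

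**Figure D3:**
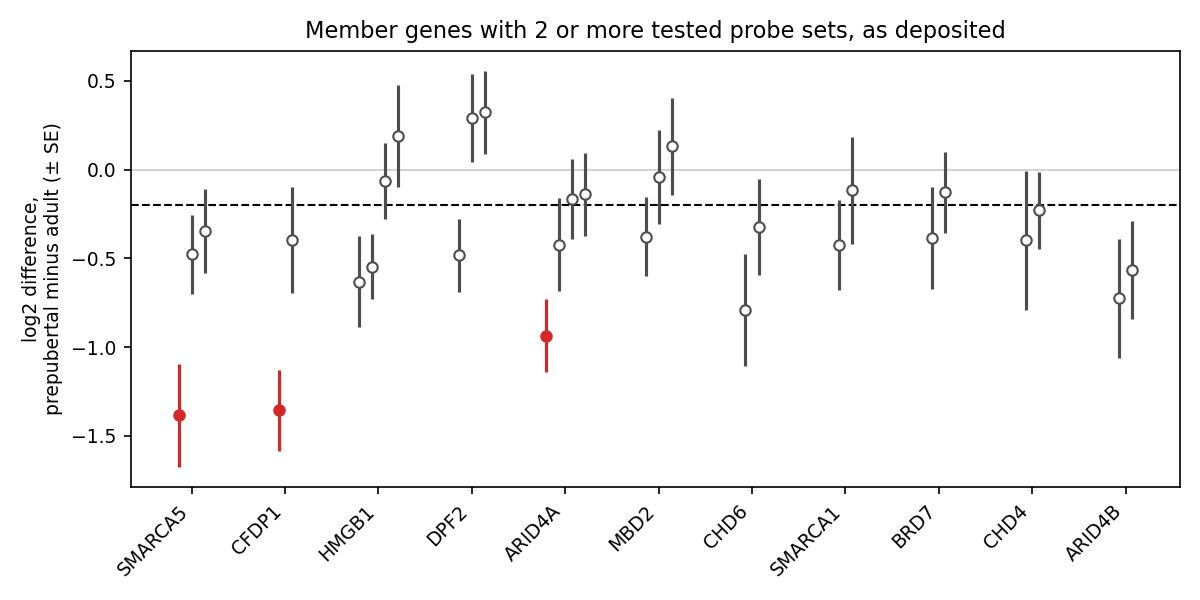
Log2 difference, prepubertal minus adult, of every tested probe set of the genes measured by at least 2, as deposited, with each probe set as a point, whiskers of ± SE, filled red points for those past the threshold and the dashed line at the median of all tested probe sets. The sets of SMARCA5 span 1.04, and those of 6 genes fall on both sides of the line.

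A difference between members on the same array depends less on that array's overall brightness, although the added constant keeps a rescaling from cancelling in full, so such differences were taken as a description, with the pairs chosen after the values were seen and no test made. Probe sets respond differently to the same amount of RNA, so the size of such a difference does not rank 2 transcripts, and only its shift between the groups is read. SMARCE1 stood -1.03 ± 0.73 log2 units from the median of the 9 other tested SWI/SNF genes in prepubertal oocytes, against 0.20 ± 0.15 in adult oocytes (SD, n = 3 each). The SMARCA5 set with the lowest difference stood 0.88 ± 0.37 from the median of the other ISWI genes in prepubertal oocytes, against 1.89 ± 0.35 in adult oocytes. CFDP1 stood 0.48 ± 0.08 from the median of RUVBL1 and INO80E in prepubertal oocytes, against 1.49 ± 0.18 in adult oocytes. In these comparisons the groups did not overlap. Against the brightest SMARCA5 set, the same SMARCA5 set stood at -0.57 ± 0.56 in prepubertal and 0.34 ± 0.38 in adult oocytes. There the groups met, at 0.078 in prepubertal replicate 1 and in adult replicate 3. Against the dimmest SMARCA5 set it stood at -0.33 ± 0.44 in prepubertal and 0.71 ± 0.25 in adult oocytes, without overlap. SMARCA4 minus SMARCA2 was 0.19 ± 0.03 in prepubertal oocytes and 0.72 ± 0.15 in adult oocytes, and HMGB1 minus HMGB2 was -2.45 ± 0.07 in prepubertal and -1.82 ± 0.22 in adult oocytes, also without overlap. SMARCA5 minus SMARCA1, on their brightest sets, was 2.89 ± 0.08 in prepubertal and 2.94 ± 0.18 in adult oocytes, with overlap.

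**Figure D4:**
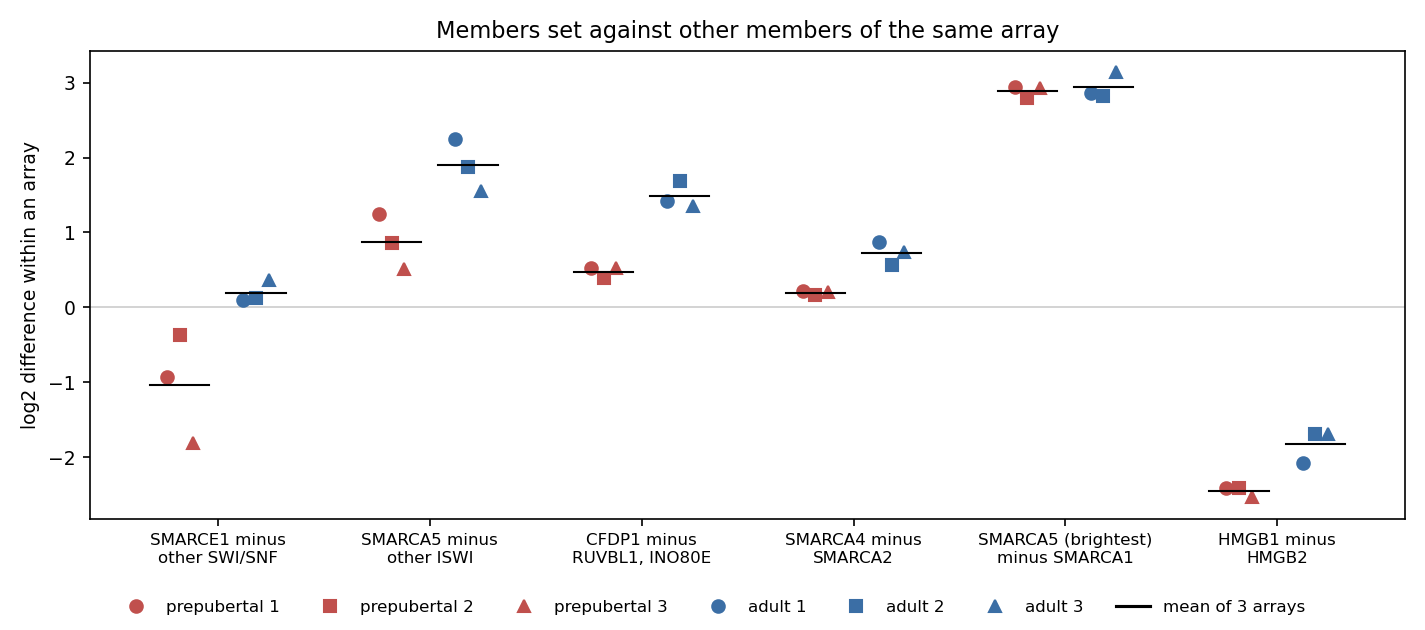
Differences between members on the same array, in log2(signal + 16), with each array as a point (prepubertal in red, left, adult in blue, right) and a bar at the mean of 3. SMARCE1, the SMARCA5 set with the lowest difference and the brighter CFDP1 set sit lower against the rest of their families in prepubertal oocytes. SMARCA5 minus SMARCA1, on their brightest sets, overlaps between the groups.

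The partner genes of these complexes that the symbol rule does not reach were listed separately. Of 53 listed symbols 30 were on the array and 23 were tested, and by limma 0 passed in either direction or setting. At an unadjusted p under 0.05, 4 of their 29 tested probe sets were lower as deposited and 2 after quantile normalization, with 0 higher, shares near the backgrounds of 13.6% and 5.81%. Prepubertal values were the lower ones for 21 of the 23 genes as deposited and for 13 once quantile-normalized, with medians of -0.25 and -0.03. The smallest p belonged to VPS72, the H2A.Z chaperone subunit of the SRCAP complex, with 50.3, 64.9 and 38.9 in prepubertal and 104, 93.0 and 85.0 in adult oocytes (-0.72 ± 0.23, limma adjusted p = 0.181). YY1, a zinc-finger factor that joins INO80, gave 157, 161 and 166 in prepubertal and 243, 238 and 284 in adult oocytes (-0.61 ± 0.22, limma adjusted p = 0.225). ACTR6, a SRCAP actin-related subunit, gave 666, 454 and 532 in prepubertal and 1099, 700 and 734 in adult oocytes (-0.59 ± 0.23, limma adjusted p = 0.251).

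The remaining 22 member probe sets were too dim to be tested, and 9 genes had no other set: ARID1B, BAZ2B, CHD8, INO80B, INO80C, MBD1, MTA2, RUVBL2 and SMARCD3. The group means of the 22 untested probe sets lay between 1.13 and 22.3. A signal at this level does not say that a transcript is absent. Members that the rule names and that had no probe set with a single symbol, such as ARID1A, SMARCC1, PBRM1, CHD1, RBBP4 and INO80, were not analysed here.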

How the data were processed

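The deposited values are MAS5 signal intensities, as the authors deposited them, per the submitters' processing notes; the labels name no background or scaling settings. The table held 24123 probe sets, of which 124 array controls were left out, and 0 columns were unused. Symbols came from the platform annotation (10069 probe sets with 1 symbol, 198 with several, 13732 not listed). The log2 of signal + 16 was fitted with limma 3.58.1 in R 4.3.3 (lmFit, eBayes with an intensity trend) over the 12000 probe sets at or above the median, with Benjamini-Hochberg adjustment. Quantile normalization, which was run on the probe sets other than controls, is given beside the deposited scale. The fit was tested on simulated data.

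The members and lists were chosen with earlier results of these data known. Genes were named if a probe set passed, if they were the 3 brightest or the 3 with the smallest p of a family, if they were motor ATPases or paralog pairs, or if their probe sets disagreed. Comparisons within an array were chosen after seeing the data. The labels call the replicates biological without saying which animals or pools each came from. A limma p-value here therefore sets a difference against the spread between these arrays, estimated with the intensity trend, and not between known animals. With 3 arrays a group the number of arrays limits the precision, and an exact permutation test could not go below 0.1. Alternatives were 2 scalings, constants of 1 and 64, other filters, no trend, a replicate block, the mean over a gene's probe sets and leaving out each array.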

Additional observations from a re-analysis of the deposited data

How the results depend on the processing

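Every called member probe set kept lower prepubertal values under each alternative run, and no result changed direction past the threshold. Against 4 member probe sets and 57 of all probe sets past the threshold as deposited, quantile normalization gave 2 and 14, trimmed-mean scaling 2 and 20 and a constant of 1 gave 2 and 15, in each case with SMARCE1 and CFDP1 left. Dropping the filter gave 0 and 1, and dropping the intensity trend 0 and 1. A stricter filter on dim probe sets kept the same 4 and gave 173 in all. Under quantile normalization and trimmed-mean scaling the medians were -0.14 and -0.14 for SWI/SNF, -0.18 and -0.20 for ISWI, 0.003 and 0.027 for CHD and NuRD, and 0.028 and 0.034 for the other members. The INO80 and SWR1 median was -0.85 under the stricter filter, which tests fewer genes. The labels number the replicates alike in both groups without saying that a number is shared, so the main fit did not take the numbers as pairs. Deviations of same-numbered arrays correlated at 0.11, 0.058 and 0.029, and each array correlated best with its own number as deposited. After quantile normalization this did not hold: prepubertal replicate 2 correlated at 0.033 with adult replicate 3 and at 0.019 with adult replicate 2. These correlations cannot tell whether a number is shared, because the labels do not say what it stands for. With a replicate block 8 member probe sets and 918 of all passed, and with the block and quantile normalization 3 and 33 (medians -0.141, -0.183, 0.003 and 0.028 in the same order of families). Leaving out 1 array gave 0 to 6 member probe sets (6 without prepubertal replicate 1, 2 without prepubertal replicate 2 or 3, 1, 0 and 3 without adult replicate 1, 2 and 3) and 3 to 658 of all. The medians ranged from -0.463 to -0.292 over all members, -0.52 to -0.247 for SWI/SNF, -0.50 to -0.308 for ISWI, -0.45 to -0.105 for CHD and NuRD, -0.524 to -0.317 for INO80 and SWR1 and -0.35 to -0.183 for the others. With the mean over a gene's probe sets in place of the brightest set, the median was -0.335 over all members. It was -0.295 for SWI/SNF, -0.422 for ISWI, -0.136 for CHD and NuRD, -0.352 for INO80 and SWR1 and -0.228 for the others. After quantile normalization, an alternative chosen after seeing the data, leaving out prepubertal replicate 1, 2 or 3 gave 4, 1 and 0 member probe sets and adult replicate 1, 2 or 3 gave 0, 0 and 0 (213, 6, 3, 2, 0 and 4 of all). The cause of these changes was not tested. Signals close to the level filtered out limit what dim members such as HMGN4 and BAZ2A can show.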
